A study of Mus musculus with 4 samples.

Results

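The genes examined were 8 members of the sympathoadrenal programme that neuroblastoma arises from: *Mycn*, *Phox2a*, *Hand2*, *Th*, *Dbh*, *Gata3*, *Isl1* and *Chga*. They were taken by symbol, 8 of 54532 genes in the count table. Transcripts were sequenced from TAMs (tumor-associated macrophages) of subcutaneous NB9464 tumors, collected on day 40 after implantation of NB9464 cells, from mice that were 4 to 6 weeks old when implanted and were left untreated. The labels leave the source of the RNA in doubt: one names BMDMs (bone marrow-derived macrophages) at the extraction step, and the title of the series speaks of an adoptive transfer, in which TAMs are mixed with tumor cells and injected into other mice, so which cells and hosts the genotype refers to cannot be settled here. The genotypes, on the C57BL/6 background, had 2 libraries each, SykMC-WT (M7 and M8) and SykMC-KO (M9 and M10). In SykMC-KO mice, floxed *Syk* is combined with Cre recombinase under the lysozyme M promoter, which is active in myeloid cells. Other cells of the host and the tumor cells keep the *Syk* gene, though the authors report no Syk protein in NB9464 cells. The sources used here do not state which of the floxed and Cre alleles the SykMC-WT controls carry or how many animals gave each library. The cells were enriched with magnetic beads against CD11b and F4/80, so tumor cells were not the target of the isolation. Nothing states that libraries came from separate animals, and p-values then measure only the spread between these libraries.

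Sympathetic neurons and adrenal chromaffin cells descend from the neural crest and make catecholamines. PHOX2A, HAND2, GATA3 and ISL1 are transcription factors of this lineage. TH, the rate-limiting enzyme of catecholamine synthesis, and DBH, which turns dopamine into noradrenaline, mark cells that make these transmitters, and CHGA is the main soluble protein of their storage granules. MYCN is the MYC family oncoprotein whose gene is amplified in high-risk neuroblastoma. Several members have other sites of expression: *Hand2* in mesenchymal cells of many organs, *Gata3* in T cells and innate lymphoid cells. NB9464 was derived from the TH-MYCN mouse, in which a human MYCN cDNA is driven by a rat *Th* promoter, so transcripts of the transgene differ in sequence from mouse *Mycn*, and how such reads were counted was not tested.

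The label of these genes as a neuroblastoma identity was checked against defining markers, and the data went against it. *Th* and *Dbh* had 0 counts in each of the 4 libraries, out of 90073618 counts in all. *Phox2a* had 2 and 8 counts in M7 and M8, against 3 and 0 in M9 and M10. Against this, the counts of *Hand2* were 7182, 7403, 3666 and 5257 over M7 to M10, and those of *Mycn* 609, 525, 604 and 799. The 8 genes are therefore described singly, by their leading genes *Hand2* and *Mycn*, and not as a tumor cell identity.

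Upstream sequences are shown for *Th* and *Dbh*, which had no reads, for *Hand2*, which had most, and for *Chga*, a low member. Each is the stretch of 250 bases before the RefSeq start site (GRCm38.p6, mm10), read in the direction of the gene, at chr7:142899996-142900245 (minus strand) for *Th*, chr2:27165257-27165506 (plus) for *Dbh*, chr8:57320733-57320982 (plus) for *Hand2* and chr12:102554691-102554940 (plus) for *Chga*. Capitals mark every match on either strand to TGACG, the core of the cAMP response element, and to ATTA, the core that homeodomain proteins such as PHOX2A bind, and matches can overlap.
Th: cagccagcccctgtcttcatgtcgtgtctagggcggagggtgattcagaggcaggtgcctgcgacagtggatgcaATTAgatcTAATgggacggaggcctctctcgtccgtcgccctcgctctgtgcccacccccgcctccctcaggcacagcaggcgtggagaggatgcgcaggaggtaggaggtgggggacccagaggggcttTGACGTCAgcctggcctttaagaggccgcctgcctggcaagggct
Dbh: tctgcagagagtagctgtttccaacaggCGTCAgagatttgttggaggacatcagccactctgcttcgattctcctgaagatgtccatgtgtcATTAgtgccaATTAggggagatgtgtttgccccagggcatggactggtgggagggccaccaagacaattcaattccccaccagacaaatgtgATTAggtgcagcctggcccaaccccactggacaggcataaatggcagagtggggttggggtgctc
Hand2: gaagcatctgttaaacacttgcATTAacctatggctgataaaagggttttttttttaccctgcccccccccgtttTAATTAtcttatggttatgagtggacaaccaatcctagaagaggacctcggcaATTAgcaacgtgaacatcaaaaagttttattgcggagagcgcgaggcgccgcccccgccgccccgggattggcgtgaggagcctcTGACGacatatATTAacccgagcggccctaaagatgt
Chga: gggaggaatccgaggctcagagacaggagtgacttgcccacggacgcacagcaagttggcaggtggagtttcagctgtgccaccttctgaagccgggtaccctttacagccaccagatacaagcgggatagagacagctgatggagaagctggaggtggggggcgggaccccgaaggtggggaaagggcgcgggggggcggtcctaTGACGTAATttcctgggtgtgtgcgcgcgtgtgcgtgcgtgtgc

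TGACG or its complement was found in 17.8% of 32851 upstream windows of the same length and ATTA in 54.9%, so neither is rare. *Th* held the full palindrome, a pair of overlapping TGACG matches from 45 to 38 bases before the start, and 2 ATTA matches. *Chga* had TGACG at a like distance, from 44 to 40 bases before its start. *Dbh* had 3 ATTA matches and 1 TGACG match, and *Hand2* had 5 ATTA matches and 1 TGACG match. Upstream windows were found for all 8 members, and *Phox2a* and *Gata3* held neither motif. The *Dbh* window was poor in CpG, with an observed over expected CpG ratio of 0.115, against 0.993 for *Hand2* and a median of 0.374 over all windows. The motifs were thus present in windows of members with no reads and of the member with most reads alike.

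The genotype comparison used the quasi-likelihood test of edgeR on TMM-normalized counts (TMM is a scaling that assumes most genes do not change), with Benjamini-Hochberg adjustment over 16451 genes that passed an expression filter. Total counts were between 20755886 and 23518045 per library. Deposited labels were checked by *Syk*, which was 27.9 and 23.2 CPM (counts scaled to a common library size) in M7 and M8, against 196 and 160 in M9 and M10. *Syk* was thus higher in the libraries labelled SykMC-KO (log2 fold change 2.80, standard error 0.194, adjusted p = 0.000674), against what the label says, and directions below follow the labels. Gene-level counts cannot show whether the floxed exon was present. All 6 pan-leukocyte genes and 11 of 12 macrophage markers were higher in M9 and M10. The list medians were 3.57 and 2.81 on the log2 scale. *Lyz2*, whose promoter drives the Cre, was the macrophage marker that was lower. It was 296 and 208 CPM in M7 and M8, against 8.64 and 20.2 in M9 and M10 (log2 fold change -4.13, adjusted p = 0.00156). Whether the Cre allele itself changes *Lyz2* counts was not tested. Summed macrophage markers were 1312 and 929 CPM in M7 and M8 and 8186 and 4904 CPM in M9 and M10. Of 8 fibroblast markers 6 were lower (median -1.44) and *Dcn* and *Lum* were not past the threshold, and the 8 summed to 18205 and 21278 CPM against 6652 and 7290 CPM. The part of these cell types in the values below was not tested. In bulk RNA, fewer cells of a type and less RNA per cell cannot be told apart. M10 stood apart by its mitochondrial counts, 15.9% of the total against 2.20% to 6.00% in the others.

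Of the 8 members, 4 passed the filter (*Mycn*, *Hand2*, *Gata3* and *Chga*). *Mycn* and *Gata3* were called higher in the libraries labelled SykMC-KO at an adjusted p under 0.05, and none was called lower. Over all tested genes 39.4% were called, 22.7% higher and 16.7% lower, so 2 called of 4 tested is near the background. *Gata3* passed the filter only through the libraries in which it was high, and *Chga* had between 3 and 59 counts. A count over the tested members carries no weight for the group. The other 4 had too few counts to be tested, with at most 8 in any library.

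**Figure D1:**
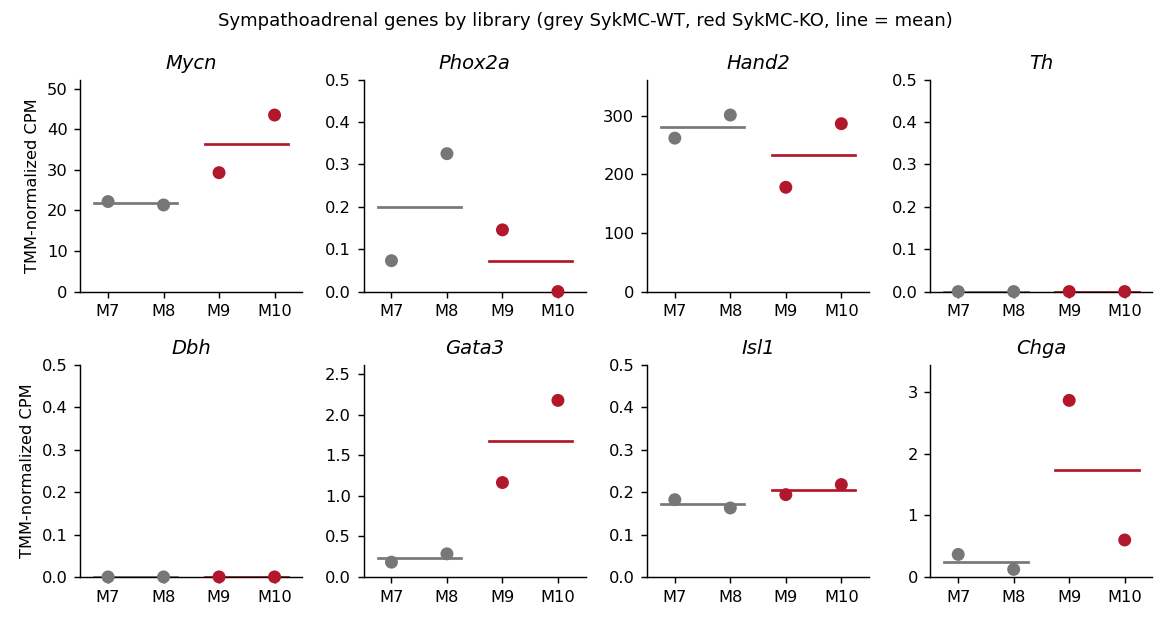
TMM-normalized CPM of the 8 genes in each library (grey points SykMC-WT, red points SykMC-KO, line the mean of 2), on a linear axis from 0 that differs between panels. Hand2 lay between 178 and 301 CPM and Mycn between 21.4 and 43.5 CPM, while Th and Dbh were at 0 in all 4 libraries.

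*Hand2* (ENSMUSG00000038193, chromosome 8 of GRCm38, 57320983 to 57324633, plus strand) encodes a basic helix-loop-helix factor of sympathetic neurons, heart and limb mesenchyme. Its level was 262 and 301 CPM in M7 and M8, against 178 and 286 in M9 and M10. M9 was lowest and M10 lay between both SykMC-WT libraries, so the genotypes overlapped. Per kilobase of exon this was between 75.7 and 128 CPM, above 95.5% to 98.5% of the tested genes of each library. The difference of -0.28 on the log2 scale (standard error 0.254, 95% interval -0.89 to 0.34, adjusted p = 0.418) was within the spread between libraries. Whether it passed the threshold turned on the scaling: with library size only it was -0.83 (adjusted p = 0.0328). Without M10, which leaves SykMC-KO with 1 library, it was -0.65.

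*Hand2* was also set against fibroblast genes of the same library. *Hand2* had 1.44 and 1.42 counts per 100 counts of the 8 fibroblast markers in M7 and M8, and 2.68 and 3.93 in M9 and M10. Against *Pdgfra* alone, a receptor of fibroblasts, the values were 162 and 173 per 100 counts in M7 and M8, and 339 and 433 in M9 and M10. In both ratios neither pair of libraries overlapped the other, and these ratios do not depend on the scaling. *Pdgfra* was among the 6 markers that were lower, as were *Col1a1*, *Col3a1* and *Fn1*, which gave most of the summed counts. *Dcn* and *Lum*, not past the threshold, were at -0.28 and -0.63 on the log2 scale, against -0.28 for *Hand2*. The separation was thus shown only against denominators made up mostly of markers that fell, and *Hand2* and *Dcn* changed alike. With libraries scaled to the 8 fibroblast markers, a choice made once the values were known, *Hand2* came to 0.93 on the log2 scale (adjusted p = 0.0210), below the median of 1.26 over all tested genes, of which 9999 were called higher. With 2 libraries a side, 0.333 is the smallest p that exact permutation allows, and the ratios were left untested.

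*Hand2os1* (ENSMUSG00000100510, chromosome 8, 57281117 to 57324233, minus strand) is a long non-coding RNA read from the opposite strand that overlaps *Hand2*, with 461 exon bases in common. Its level was 86.8 and 102 CPM in M7 and M8, against 21.9 and 35.9 in M9 and M10. Both libraries labelled SykMC-KO were below both others, 3.27-fold lower (-1.71 on the log2 scale with a standard error of 0.258, adjusted p = 0.00443). It had 33.1 and 33.97 counts per 100 counts of *Hand2* in M7 and M8, and 12.3 and 12.5 in M9 and M10. This ratio was 2.70 times as large in the libraries labelled SykMC-WT and nearly the same within each genotype. Whether reads were counted by strand is not given in the sources used here, so reads of the shared exon bases cannot be assigned to one gene or the other.

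**Figure D2:**
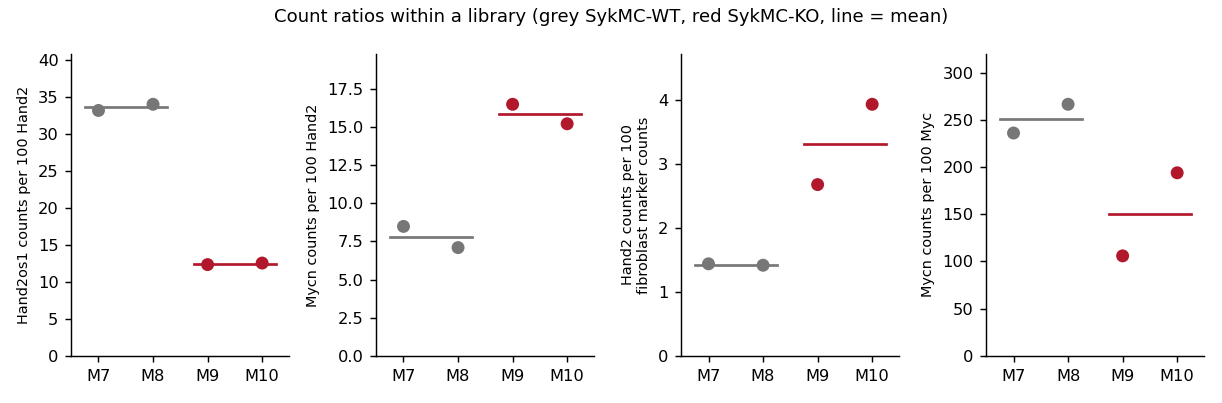
Ratios of counts within each library (grey points SykMC-WT, red points SykMC-KO, line the mean of 2), on linear axes from 0. Hand2os1 per 100 Hand2 separated the genotypes (33.1 and 33.97 against 12.3 and 12.5), Mycn per 100 Hand2 and Hand2 per 100 fibroblast marker counts were higher in M9 and M10, and Mycn per 100 Myc was lower there.

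*Mycn* (ENSMUSG00000037169, chromosome 12, 12936093 to 12941914, minus strand) was 22.2 and 21.4 CPM in M7 and M8, against 29.3 and 43.5 in M9 and M10. Both libraries labelled SykMC-KO were above both others, and the gap between M9 and M10 was wider than the gap from M7 up to M9. The mean was 21.8 ± 0.593 CPM (SD, n = 2) in SykMC-WT and 36.4 ± 10.1 CPM (SD, n = 2) in SykMC-KO. *Mycn* rose 1.67-fold, or by 0.74 on the log2 scale (standard error 0.226, 95% interval 0.20 to 1.29, adjusted p = 0.0415). The call was lost with library size only (0.19, adjusted p = 0.490), and *Mycn* was lower when libraries were scaled to macrophage markers (-1.995, adjusted p = 0.000511). It was also lost without M7 (0.77) and without M8 (0.70), fits in which fewer genes were called over all tested genes. The value without M10, the library with most mitochondrial counts, was 0.44.

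Relative to *Hand2*, *Mycn* had 8.48 and 7.09 counts per 100 in M7 and M8, and 16.5 and 15.2 in M9 and M10. The paralog *Myc*, the MYC family gene of most dividing cells, moved further in the same direction. It rose from 8.71 ± 0.983 CPM to 25.1 ± 3.69 CPM (SD, n = 2 each), by 1.52 on the log2 scale (standard error 0.225, adjusted p = 0.00413). *Mycn* had 236 and 266 counts per 100 *Myc* in M7 and M8, and 106 and 194 in M9 and M10. Per kilobase of exon, *Mycn* was 6.61 ± 0.180 CPM and *Myc* 3.21 ± 0.362 CPM in SykMC-WT, and in SykMC-KO they were 11.1 ± 3.05 and 9.22 ± 1.36 CPM (SD, n = 2 each), with the *Myc* mean within 1 SD of the *Mycn* mean. *Mycl*, the remaining family member, was 4.05, 3.26, 2.48 and 2.29 CPM in M7 to M10 and did not pass the threshold (log2 fold change -0.61, adjusted p = 0.277).

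*Gata3* (ENSMUSG00000015619, chromosome 2, 9857078 to 9890034, minus strand) had 5 and 7 counts in M7 and M8, against 24 and 40 in M9 and M10. These few counts correspond to 0.182, 0.285, 1.17 and 2.18 CPM, and the genotypes did not overlap. On the log2 scale the difference was 2.82 (standard error 0.727, 95% interval 1.06 to 4.57, adjusted p = 0.0247), 7.04-fold higher in the libraries labelled SykMC-KO. Without M10 it was 2.32. It was not called without M7 (2.52) or without M8 (3.15), fits in which fewer genes were called over all tested genes. Scaled to macrophage markers it was 0.096 (adjusted p = 0.940), and scaled to pan-leukocyte genes -0.61 (adjusted p = 0.600). Genes of the T cell receptor complex also had few counts in M7 and M8 and more in M9 and M10. The counts of *Cd3e* were 2, 1, 30 and 41 over M7 to M10, and *Trbc2*, the T cell receptor beta constant region, had 1, 1, 37 and 55. Per 100 summed counts of *Cd3d*, *Cd3e*, *Cd3g* and *Trbc2*, *Gata3* had 50 and 100 in M7 and M8, against 21.6 and 29.9 in M9 and M10. The M7 and M8 values rest on few counts on both sides of the ratio. Of the 11 T cell and innate lymphoid markers, 6 were called higher and 2 lower (*Il1rl1* and *Thy1*), against 22.7% and 16.7% of all tested genes. *Cd3d*, *Cd3e*, *Cd3g* and *Trbc2* had at most 4 counts in M7 or M8 and passed the filter only through the libraries in which they were high. *Cd8a*, *Tcf7* and *Rora* were at -0.44, -0.14 and -0.58 on the log2 scale, not past the threshold. The 11 markers had a median of 2.69 on the log2 scale, and their summed level was 90.5 and 99.7 CPM in M7 and M8, and 143 and 98.3 CPM in M9 and M10. Their part in the *Gata3* result was not tested. *Gata2*, a relative of *Gata3* that also acts in sympathetic, endothelial and mast cells, went the other way and fell from 12.9 ± 2.31 to 3.36 ± 0.670 CPM (SD, n = 2 each, log2 fold change -1.94, adjusted p = 0.00541). The *Gata2* call was lost without M8 (-1.76) and with the fibroblast scaling (-0.67, adjusted p = 0.161).

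*Chga* (ENSMUSG00000021194, chromosome 12, 102554969 to 102565028, plus strand) had 10 and 3 counts in M7 and M8, against 59 and 11 in M9 and M10. In normalized units these are 0.365, 0.122, 2.86 and 0.599 CPM, and M9 alone stood high. Its difference of 2.80 on the log2 scale missed the threshold (standard error 0.997, 95% interval 0.39 to 5.20, adjusted p = 0.0668), while the DESeq2 Wald test gave 2.81 (adjusted p = 0.0456). Without M9 the value was 1.18, and without M10 it was 3.52, so its size rested mostly on M9. Of other granule proteins, *Chgb*, chromogranin B, had 5, 3, 4 and 0 counts, and *Scg2*, secretogranin II, had 3, 5, 0 and 0.

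*Isl1* (ENSMUSG00000042258, chromosome 13, 116298281 to 116309689, minus strand), a LIM homeodomain factor, had 5 counts in M7 and 4 in each other library. *Phox2a* (ENSMUSG00000007946, chromosome 7, 101818313 to 101822726, plus strand) shares 95 exon bases with *Inppl1* on the opposite strand, which had between 1650 and 3506 counts, so its few reads are uncertain. With no expression filter, *Isl1* differed by 0.23 on the log2 scale (95% interval -2.92 to 3.38, adjusted p = 0.934) and *Phox2a* by -1.35 (-5.04 to 2.34, adjusted p = 0.655), so no difference was detectable at this depth. *Th* (ENSMUSG00000000214, chromosome 7, 142892752 to 142931128, minus strand) and *Dbh* (ENSMUSG00000000889, chromosome 2, 27165233 to 27183200, plus strand) were at 0, which allows up to 3 counts, or between 0.109 and 0.163 CPM depending on the library. Such floors take in counting error alone, since duplicate reads were not told apart by molecular identifiers. Per kilobase of exon and against 3 counts of *Th*, *Hand2* was 1229-fold and *Mycn* 126-fold higher in the library where each bound was lowest. *Dbhos*, an RNA antisense in name that lies 2529 bases upstream of *Dbh*, had 57, 43, 3 and 29 counts.

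By level per kilobase of exon the order was *Hand2*, then *Mycn*, with no overlap between them in any library. *Chga*, *Gata3*, *Phox2a* and *Isl1* followed, all between 0 and 1.04 CPM per kilobase, and overlapped each other. *Th* and *Dbh* were last at 0.

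The genes whose profile over the 4 libraries was nearest to that of *Hand2*, by the root mean square difference of centred log2 CPM over 14262 other genes, were *Ccdc102a*, *Pex11g* and *Hsf2*, with differences of 0.0186, 0.0209 and 0.0238. Nearest to *Mycn* were *Pus7l*, *Bahcc1* and *Rnf219*, with 0.0201, 0.0236 and 0.0244. The likeness over 4 libraries is a description, and none of these 6 genes was called by genotype.

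Other sympathoadrenal genes were read from lists of the same lineage. Of 11 further transcription factors, 9 were tested, 2 were called higher and 2 lower, with a median of -0.34 on the log2 scale, against 39.4% called and a median of 0.02 over all tested genes. *Lmo1*, a LIM-only cofactor and neuroblastoma susceptibility gene, rose from 0.292 and 0.326 CPM in M7 and M8 to 4.90 and 4.52 in M9 and M10, 15.0-fold (log2 fold change 3.91, adjusted p = 0.00278). With 8 counts in each of M7 and M8, *Lmo1* passed the filter only through the libraries in which it was high, and it was not called when scaled to macrophage markers (1.12, adjusted p = 0.309) or to pan-leukocyte genes (0.43, adjusted p = 0.671). *Klf7*, a zinc finger factor of neurons, fell by 0.76 on the log2 scale (adjusted p = 0.0174). The *Klf7* call was lost without M7 (-0.69) and without M8 (-0.85), and its direction turned with the fibroblast scaling. *Sox4*, which acts in many embryonic and tumor cells, was 58.4, 59.5, 33.9 and 59.1 CPM per kilobase of exon in M7 to M10, below *Hand2* in each library, and its difference of -0.34 on the log2 scale missed the threshold (adjusted p = 0.353). *Insm1*, a neuroendocrine factor, had 0, 0, 4 and 0 counts, and *Hand1* had 0, 0, 0 and 6.

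Of 9 catecholamine genes, 6 were tested and 1 was called, *Gch1*, higher in the libraries labelled SykMC-KO, against 39.4% called over all tested genes. *Gch1* encodes an enzyme needed to make the tetrahydrobiopterin that TH and nitric oxide synthases use, and it rose by 0.87 on the log2 scale (adjusted p = 0.0136). This call was lost with library size only (0.34, adjusted p = 0.235), without M7 (0.88) and without M8 (0.85). *Slc6a2*, the noradrenaline transporter, had 5, 2, 1 and 2 counts, and *Pnmt*, which makes adrenaline, had 0 in every library. *Ddc*, which converts L-DOPA to dopamine and acts in other tissues too, was 7.51, 6.06, 4.56 and 6.38 CPM with no difference past the threshold (adjusted p = 0.495).

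Of 13 secretory granule genes, 5 were tested and 2 were called, both lower, a share near the 39.4% called over all tested genes. *Cpe*, carboxypeptidase E of peptide hormone processing, fell from 147 ± 12.3 to 80.7 ± 9.45 CPM (SD, n = 2 each, log2 fold change -0.87, adjusted p = 0.00998), and *Cadps*, a factor of granule priming, fell by 1.32 on the log2 scale (adjusted p = 0.0463). The *Cpe* call was lost without M8 (-0.79), and the *Cadps* call without M7 (-1.32) and without M8 (-1.33). With the fibroblast scaling *Cadps* was -0.11 (adjusted p = 0.836) and *Cpe* turned direction. *Scg5*, *Pcsk1* and *Pcsk1n* had 0 counts in all libraries, and *Snap25*, of the neuronal release machinery, had at most 1. Of 8 receptor genes, 3 were tested and 2 were called: *Ngfr*, a neurotrophin receptor, and *Gfra2*, a neurturin receptor, were higher (log2 fold changes 2.30 and 1.109, adjusted p = 0.0194 and 0.0131), where 22.7% of all tested genes were. *Ngfr* was not called without M7 (2.43) or M8 (2.17), and *Gfra2* was not called with library size only (0.56, adjusted p = 0.0999) or without M8 (0.94). *Alk*, *Chrna3* and *Chrna7* had 0 counts, and *Ret* had 9, 5, 4 and 0.

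**Figure D3:**
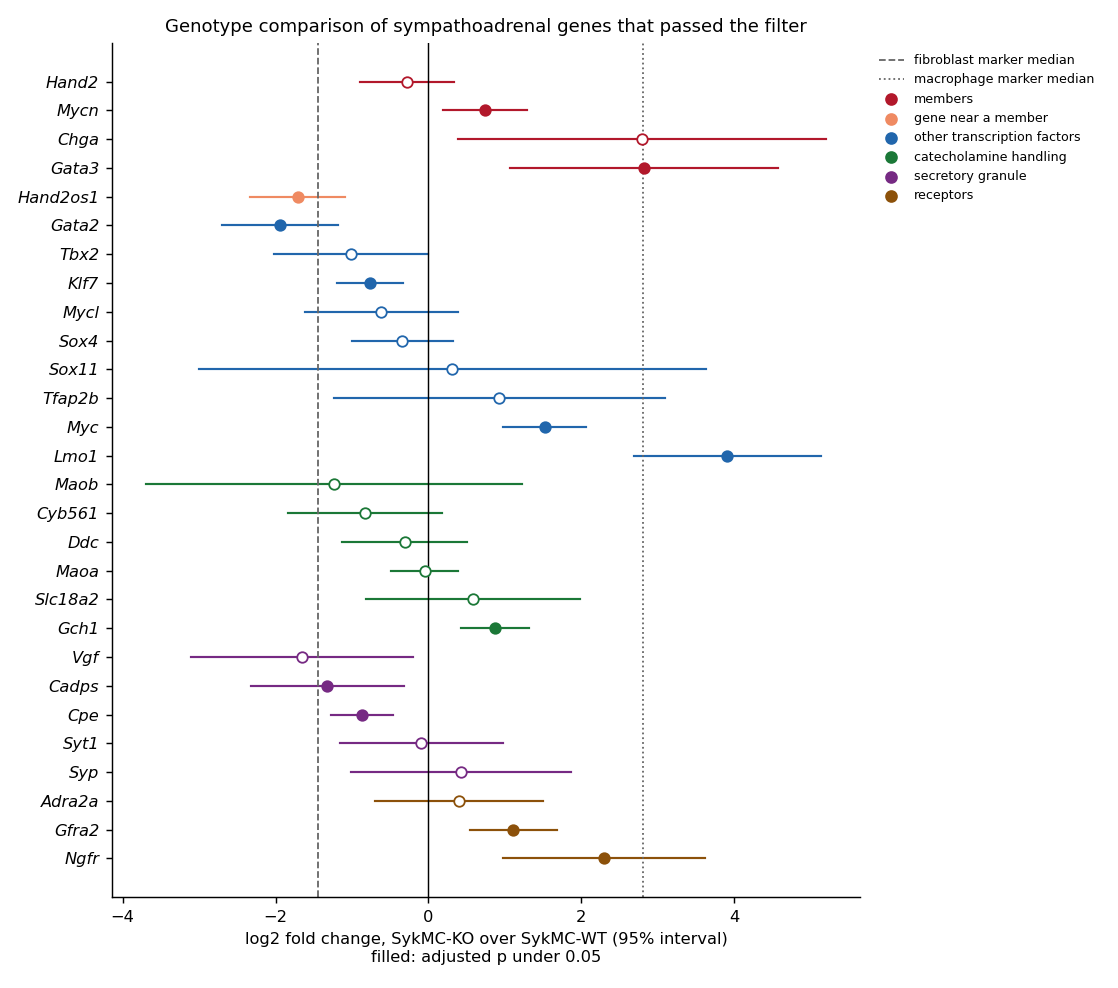
Log2 fold change (libraries labelled SykMC-KO over SykMC-WT) with its 95% interval for the tested sympathoadrenal genes and Hand2os1, filled where the adjusted p was under 0.05. Hand2 spans 0 (-0.89 to 0.34), Mycn lies above it (0.20 to 1.29), and the vertical lines mark the medians of fibroblast markers (-1.44) and macrophage markers (2.81).

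The direction of the abundant members depended on what the libraries were scaled to. Scaling to 10 macrophage markers moved the median of all tested genes to -2.78 and scaling to 6 pan-leukocyte genes to -3.48 on the log2 scale. There *Hand2* was -3.03 and -3.74, and *Mycn* -1.995 and -2.71. Scaling to the fibroblast markers moved the median to 1.26, with *Hand2* at 0.93 and *Mycn* at 1.95.

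**Figure D4:**
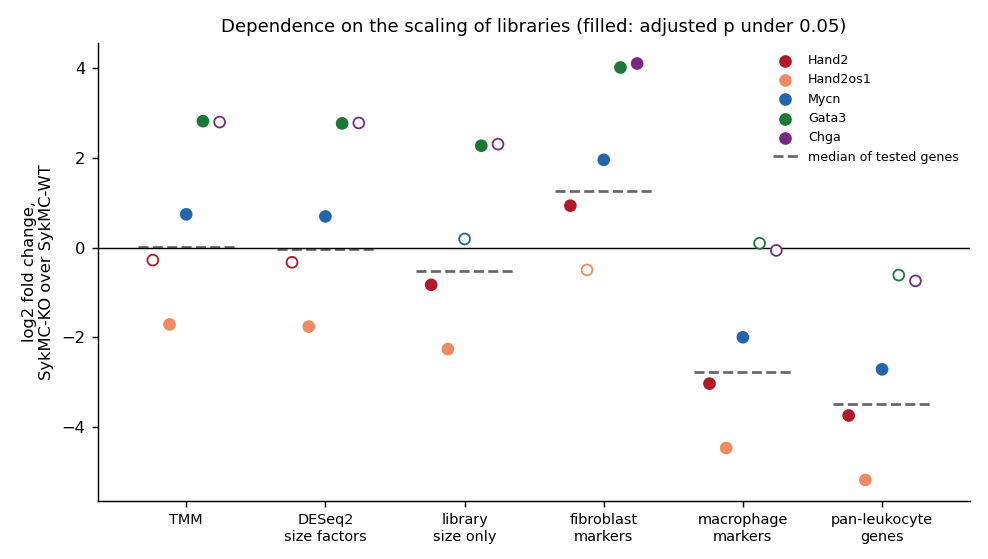
Log2 fold change of 4 members and Hand2os1 under 6 ways of scaling the libraries, filled where the adjusted p was under 0.05, with a dashed bar at the median of all tested genes. The points and the bar move together, and Hand2 is at -0.28 by TMM, 0.93 scaled to fibroblast markers and -3.03 scaled to macrophage markers.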

How the data were processed

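RNA was sequenced from cells labelled as TAMs of NB9464 tumors, 2 libraries per genotype. Mapping by the authors was to mm10 with STAR, followed by Salmon. STAR 2.6.1d and Salmon 1.4.0 are named in the submitters' processing notes. The values deposited are whole-number read counts per Ensembl gene, not normalized. How Salmon's estimates became whole numbers is not given in the sources used here. Per the labels, reads were paired on a NovaSeq from poly(A)-selected RNA, and the labels name both TAMs and BMDMs as the source of the RNA.

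Symbols and positions came from GENCODE M21 (54495 of 54532 genes matched), upstream sequences from RefSeq on GRCm38.p6. Genes passed filterByExpr and were tested with edgeR 4.0.16 in R 4.3.3 (glmQLFit, glmQLFTest, TMM), adjusted over 16451 genes at a threshold of 0.05. Floors were 3 counts. Replicate libraries were further apart than sampling noise (chi-square per degree of freedom 55.8 and 185). Alternatives were other scalings and filters, DESeq2 1.42.0, a threshold of 0.1 and each library left out. The scripts were tested on simulated data. The genes named were the members, genes within 5 kb of them, the lineage lists, and the 3 nearest profiles of members with a mean of at least 1 CPM (log2 with a prior count of 2). Members and lists were chosen with earlier results of these data known. Some genes of these lists are not reported here.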

Additional observations from a re-analysis of the deposited data

How the results depend on the processing

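*Hand2os1* was lower under each scaling, filter and library left out, and was past the threshold in all of them but the scaling to fibroblast markers (-0.50, adjusted p = 0.117). Genes called over all tested were 6476 by TMM, 14383 scaled to macrophage markers (119 higher), 15249 scaled to pan-leukocyte genes (66 higher) and 10409 scaled to fibroblast markers (9999 higher), against 3729 higher by TMM and 1677 higher of 7088 with library size only. Leaving out each library in turn gave between 2285 and 9755 called genes and between 0 and 4 called members. Called members were 4 with the fibroblast scaling and 1 with at least 10 counts in every library, which tested 2 of them. A genotype left with 1 library was assumed to vary like the other, so calls in these fits follow the spread of the genotype that kept 2. More genes were called without M9 or M10 than in the main fit, and fewer without M7 or M8. A call gained or lost in these fits is therefore not particular to a gene. Scaled to macrophage markers, the direction turned for *Mycn* (-1.995), *Chga* (-0.062), *Myc* (-1.29), *Gch1* (-1.94), *Gfra2* (-1.62) and *Ngfr* (-0.44). Scaled to pan-leukocyte genes it turned for *Mycn* (-2.71), *Gata3* (-0.61), *Chga* (-0.74), *Myc* (-1.98), *Gch1* (-2.64), *Gfra2* (-2.34) and *Ngfr* (-1.15). Scaled to fibroblast markers it turned for *Hand2* (0.93), *Klf7* (0.46) and *Cpe* (0.37). A scaling moves every gene of a library together. No paired analysis was possible because the labels give no number shared between genotypes. Depth limits *Phox2a*, *Isl1*, *Gata3* and *Chga*, with under 60 counts in any library.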

Other observations

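Schwann cells, the glia that share the neural crest origin of sympathetic neurons, were read from 7 markers, of which 3 were tested. *Sox10*, the defining factor of these glia, had 7 counts in M7, 4 in M8 and 0 in M9 and M10. *Fabp7*, a fatty acid binding protein of glial precursors, had 0, 1, 57 and 21 counts and was the only called gene of the list (adjusted p = 0.00794, by edgeR), having passed the filter only through the libraries in which it was high.

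Mast cells, which also use GATA2, were read from 8 markers, of which 5 were tested. Only *Hdc*, the enzyme of histamine synthesis that other myeloid cells also make, was called (log2 fold change 3.07, adjusted p = 0.000972), against 39.4% of all tested genes. The mast cell proteases *Cpa3*, *Mcpt4* and *Tpsb2* were at -1.02, -1.81 and -1.44 and *Kit* at 0.86 on the log2 scale, not past the threshold. The 8 endothelial markers had a median of -0.56, and 2 of them were called lower, against 16.7% of all tested genes.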
